A study of Homo sapiens with 24 samples.

Results

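ARM165 was compared with its DMSO vehicle in OCI-AML2, an established cell line grown from human acute myeloid leukaemia (AML). The comparison was taken by its column names from the normalized table of that line, and it rests on 8 of the 24 libraries of the series, described here across all genes. The 8 libraries are OCI-AML2 cells kept for 24 h with ARM165 (4 libraries) and OCI-AML2 cells kept for 24 h with DMSO (4 libraries). OCI-AML2 cells kept for 24 h with AZ2, the other compound of the series (4 libraries), are used to show where the ARM165 libraries differ. The AZ2 libraries also enter the filter on low values and the shared spread behind each test of ARM165 against DMSO. MOLM14 cells, another AML line, kept for 24 h with ARM165 or DMSO (4 libraries each) are used only to show where the lines differ. The series concerns PI3K gamma and AKT signalling in AML and a degrader of PI3K gamma. Its labels say neither the doses nor which compound is the degrader. Each group comes from a single line, and nothing in the labels says whether its replicates were separate cultures, so the p-values reflect library-to-library spread, part or all of which may be technical.

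PI3K gamma is a lipid kinase of white blood cells that acts below chemokine and other G-protein-coupled receptors. Its catalytic subunit is made from PIK3CG and works with a regulatory subunit made from PIK3R5 or PIK3R6. The lipid it makes draws AKT kinases to the membrane, where they become active, hold FOXO transcription factors out of the nucleus and release the growth kinase mTOR from its TSC brake. A degrader joins its target to a ubiquitin ligase so that the proteasome removes the protein, which need not change the mRNA.

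Values are normalized estimated reads per gene symbol, scaled among the libraries of a line, so a gene rises or falls only in relation to the rest of the transcriptome. Each change is the log2 difference between ARM165 and DMSO on the log2(value + 1) scale, given ± its standard error. This scale makes the changes of low genes look smaller than they are. A gene is said to rise or fall where limma's adjusted p was under 0.05 over all genes tested. In bulk samples such as these, fewer cells of a type and less RNA per cell cannot be told apart. The libraries held 37524351 to 55670981 estimated reads with ARM165 and 36857509 to 47664732 with DMSO. Of the 35587 gene symbols, 19398 ± 207 had a value above 0 with ARM165 and 19176 ± 136 with DMSO (SD, n = 4 each, two-sided exact permutation p = 0.114). Mitochondrially encoded mRNAs took 5.41% ± 0.381 of the total value with ARM165 and 7.61% ± 0.380 with DMSO (SD, n = 4 each, two-sided exact permutation p = 0.0286, the smallest p that 4 against 4 libraries allow). The cells carried their lineage's markers. CD33, PTPRC, which encodes CD45, SPI1, LYZ and CEBPA were abundant in all 8 libraries, while MPO stayed between 4.82 and 30.5 and CD34 did not pass 6.32.

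ARM165 changed a large part of the transcriptome. Of 15377 genes tested, 10125 were called (65.8%), of which 5263 rose (34.2%) and 4862 fell (31.6%). Changes of a size of at least 1 on the log2 scale were called for 2298 genes that rose (14.9%) and 2066 that fell (13.4%). The libraries of the groups did not overlap for 9304 genes (60.5%). The median change over all genes was 0.034 and the median size of a change 0.663, with a median standard error of 0.115. The shares of 34.2% and 31.6% are the background against which the members of each gene list below are to be read.

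**Figure D1:**
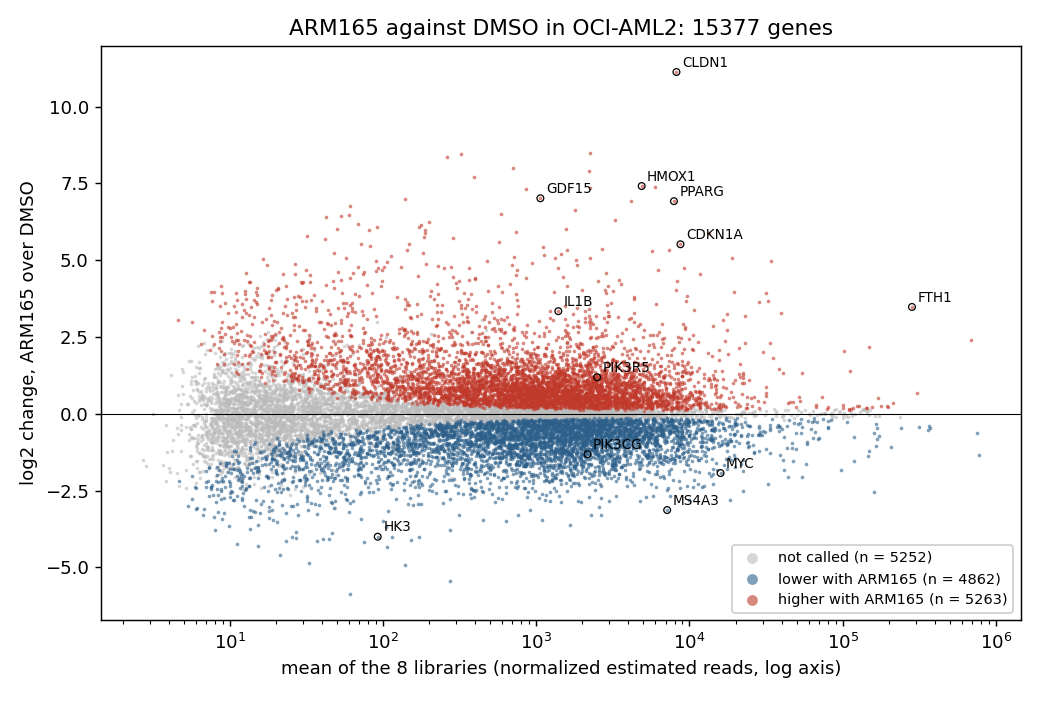
Each point is a gene tested in OCI-AML2, by its mean over the 8 libraries (normalized estimated reads, log axis) and its log2 change with ARM165 over DMSO. Red points rose (5263), blue points fell (4862) and grey points were not called. The outermost named gene is CLDN1 at 11.12.

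Among the largest rises were genes almost silent with DMSO, such as CLDN1, and genes that were low but present, such as PPARG and FABP3. CLDN1, which encodes the tight junction protein claudin-1, had 17790.4, 14453, 16261 and 17291 with ARM165, against 16.9, 13.5, 6.01 and 0.61 with DMSO. The change was 11.12 ± 0.55 (adjusted p = 7.24e-11), the largest of the rises named by the rule. Every ARM165 library was far above every DMSO library. PPARG, the nuclear receptor that drives fat cell and lipid-handling macrophage programmes, had 15877, 14906, 15427 and 16638 with ARM165, against 158, 191, 131 and 69.2 with DMSO (change 6.92 ± 0.24). FABP3, which encodes a fatty acid carrier of the cytoplasm, had 11765, 12148, 11593 and 11609.6 with ARM165, against 69.8, 57.7, 111 and 54.2 with DMSO (change 7.37 ± 0.23). The ARM165 libraries of PPARG lay within a narrow band, and its lowest DMSO library was the fourth. The other large rises were of varied function. ARVCF, a catenin that binds cadherins, changed by 7.90 ± 0.37, ABLIM3, an actin-binding LIM protein, by 8.36 ± 0.65, and XIRP1, an actin-binding protein of muscle, by 8.47 ± 0.77. TM4SF19, a membrane protein of the tetraspan kind, rose by 8.02 ± 0.68. ITPKA, which phosphorylates inositol trisphosphate and bundles actin, rose by 7.34 ± 0.26, and GDAP1L1 by 7.00 ± 0.63. DUSP8, a phosphatase of stress-activated MAP kinases, rose by 7.32 ± 0.79. KCNE1B is a near copy of KCNE1, a potassium channel subunit, so its change of 7.70 ± 0.53 is uncertain. HMOX1, GDF15 and PHLDA1, also in this group, are described with their pathways.

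The 15 largest falls named by the rule were of varied function. HSH2D, an adaptor of blood cell signalling, had 244, 226, 309 and 239.6 with ARM165, against 3049, 2859.8, 3192 and 3238 with DMSO (change -3.60 ± 0.088). CACNA2D3, a calcium channel subunit, had 158, 164, 271 and 154 with ARM165, against 1972, 2034, 2005 and 1916 with DMSO (change -3.44 ± 0.15). LRG1, a glycoprotein stored by neutrophils, had 63.2, 80.4, 71.9 and 81.8 with ARM165, against 932, 728, 794 and 850.3 with DMSO (change -3.46 ± 0.13). All 3 were expressed in every library and lower in each ARM165 library than in any DMSO library. HAL, the enzyme that starts histidine breakdown, changed by -3.79 ± 0.20, and ELOVL3, which lengthens fatty acids, by -3.50 ± 0.15. HK3, a hexokinase of myeloid cells, had 11.0, 6.94, 8.07 and 15.5 with ARM165, against 193, 188, 146 and 171 with DMSO (change -4.00 ± 0.25). TCTEX1D1, a dynein light chain, had 11.7, 8.85, 6.33 and 30.4 with ARM165, against 239, 260.3, 155 and 203 with DMSO (change -4.02 ± 0.37). SIRPD, of the signal regulatory protein family, changed by -4.16 ± 0.85 and BMP10, a growth factor of the heart, by -3.68 ± 0.51. GP1BB, which encodes a platelet surface protein, was listed at 0 in 2 of the ARM165 libraries and spread widely in the others, with 55.6, 246, 0 and 0 with ARM165, against 448, 570.1, 423 and 456 with DMSO (change -5.44 ± 1.35). Its transcripts overlap those of a neighbouring gene, so its value is uncertain. VCX (-4.07 ± 0.58) and VCX3A (-4.01 ± 0.39) are near copies of each other, TRGC1 (-3.50 ± 0.26) and TRGC2 (-3.89 ± 0.42) are near-identical constant segments of the T cell receptor gamma locus, and BNIP3P41 (-3.41 ± 0.49) is a processed pseudogene, so these changes are uncertain too.

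Most of the genes of PI3K gamma and the other class I PI3K enzymes were clearly shifted. Of 11 measured members, 3 rose and 8 fell, with a median change of -0.76. PIK3CG, the catalytic subunit of PI3K gamma, had 1180.2, 1259.7, 1257 and 1259.7 with ARM165, against 3237, 3259, 2995 and 2845 with DMSO. The change was -1.31 ± 0.057 (95% interval -1.44 to -1.19, adjusted p = 1.90e-11), and the groups did not overlap. PIK3R5, a regulatory subunit of PI3K gamma, moved the other way. It had 3475, 3413, 3559 and 3443 with ARM165, against 1597, 1328, 1583 and 1598 with DMSO (change 1.19 ± 0.07, adjusted p = 5.19e-10). PIK3R6, the other regulatory subunit, was low in all libraries, with 28.2, 77.4, 57.3 and 38.2 with ARM165, against 94.5, 83.3, 77.8 and 67.2 with DMSO (change -0.76 ± 0.32, adjusted p = 0.0493). Its groups overlapped, and its call was lost in 11 of the alternative settings, among them leaving out the first ARM165 library (change -0.53, adjusted p = 0.161). PIK3CD, the catalytic subunit of PI3K delta, which is the other isoform of white blood cells, had 2033, 1783, 1876 and 1660.1 with ARM165, against 4889, 3928, 4256 and 4343 with DMSO (change -1.24 ± 0.076). PIK3CB, the broadly expressed beta isoform, had 2042, 1725, 1887 and 2256 with ARM165, against 4173, 4232, 3896 and 3755 with DMSO (change -1.03 ± 0.073). PIK3CA, the alpha isoform, which is also broadly expressed, had 584, 526, 575 and 611 with ARM165, against 181, 183, 121 and 125 with DMSO (change 1.93 ± 0.17). Thus the mRNAs of the gamma, delta and beta isoforms were lower and that of the alpha isoform was higher in each ARM165 library than in each DMSO library. PIK3AP1, an adaptor that brings PI3K to receptors of immune cells, changed by -1.33 ± 0.069, and PIK3R2, a regulatory subunit of the receptor-kinase-coupled isoforms, by -1.20 ± 0.082. PIK3IP1, an inhibitor of PI3K that FOXO induces, had 295, 303, 221 and 235 with ARM165, against 67.4, 74.9, 94.1 and 84.4 with DMSO (change 1.70 ± 0.20).

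The AKT kinases and the phosphatases that oppose them were shifted in part. Of 14 members, 9 rose and 4 fell (median 0.28). AKT1 had 6289, 6947, 6787 and 6266 with ARM165, against 9699.6, 8163, 9506 and 9213 with DMSO (change -0.47 ± 0.061, adjusted p = 4.41e-06). AKT2 had 1063, 1271, 1231 and 1079 with ARM165, against 2124, 1649.9, 1858 and 1842 with DMSO (change -0.69 ± 0.081, adjusted p = 1.78e-06). Both were lower in every ARM165 library. Among the brakes on AKT, PHLPP2, which removes a phosphate from AKT, rose by 1.38 ± 0.11 and its relative PHLPP1 by 0.69 ± 0.17. INPP5D, which encodes the blood cell lipid phosphatase SHIP, changed by -1.19 ± 0.082 in the opposite direction.

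**Figure D2:**
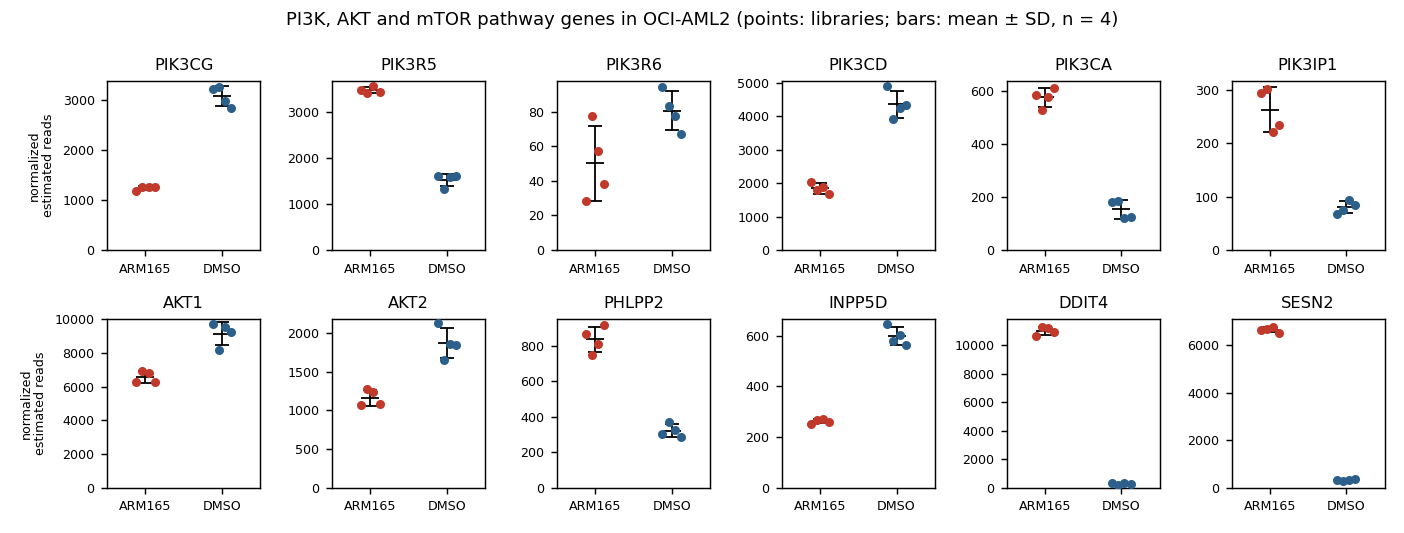
Normalized estimated reads of 12 genes of the PI3K, AKT and mTOR pathways in the 4 ARM165 and the 4 DMSO libraries of OCI-AML2. Points are libraries and bars the mean ± SD. PIK3CG, PIK3CD, AKT1, AKT2 and INPP5D are lower in every ARM165 library, the groups overlap for PIK3R6, and PIK3R5, PIK3CA, PIK3IP1, PHLPP2, DDIT4 and SESN2 are higher.

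Of 22 measured genes of the mTOR complexes and their regulators, 14 rose and 2 fell, with a median of 0.51. The size of the rises was uneven, and both of the largest were in stress-induced inhibitors of mTORC1. DDIT4, which acts through the TSC complex, had 10684, 11279, 11214 and 10974 with ARM165, against 317, 213, 309 and 285 with DMSO (change 5.31 ± 0.11, adjusted p = 8.10e-15). SESN2, a leucine sensor that holds mTORC1 back, had 6629, 6691, 6782 and 6535 with ARM165, against 345, 269.9, 333 and 352 with DMSO (change 4.36 ± 0.10). The groups did not overlap for either gene. RRAGC, a GTPase that brings mTORC1 to the lysosome, rose by 1.76 ± 0.096, while SESN3, another sestrin, changed by -1.71 ± 0.12 and DEPTOR, an inhibitor of mTOR, by -0.56 ± 0.19, a call that was lost without ARM165 replicate 2 (adjusted p = 0.0552) or DMSO replicate 2 (adjusted p = 0.0612). MTOR itself was not called (0.15 ± 0.078, adjusted p = 0.113).

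FOXO factors and genes that FOXO induces rose for the most part, 12 of 17, against 3 that fell (median 1.32). KLF6, a zinc finger factor, had 2305, 2143, 2154 and 2351 with ARM165, against 236, 242, 203 and 199 with DMSO (change 3.35 ± 0.094). KLF2, a quiescence factor of blood and vessel cells, had 606, 499.7, 503 and 479.8 with ARM165, against 60.1, 44.7, 82.1 and 46.5 with DMSO (change 3.18 ± 0.21). TRIB1, a pseudokinase that directs C/EBP proteins to degradation, changed by 2.71 ± 0.086, TXNIP, an inhibitor of glucose uptake, by 2.51 ± 0.063 and FOXO3 by 1.59 ± 0.059. The members that fell were TNFSF10, which encodes the death ligand TRAIL (-2.50 ± 0.15), SESN3 and CITED2, a co-activator that competes with HIF proteins (-1.11 ± 0.07). TNFSF10 and SESN3 are classical FOXO targets, so the list did not move as a block.

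Rac and PAK genes, which control the actin skeleton below PI3K, fell for 8 of 15 and rose for 3 (median -0.36). ARHGDIB, which holds Rac and related GTPases inactive in blood cells, had 19302, 22156, 21667 and 21149 with ARM165, against 88126, 84681, 88677 and 86747 with DMSO (change -2.05 ± 0.056). RAC2, the blood cell Rac, changed by -1.19 ± 0.06, ARHGEF6, a Rac exchange factor, by -1.20 ± 0.05 and VAV1, another, by -0.86 ± 0.05. The broadly expressed RAC1 was not called (0.037 ± 0.067). ARHGEF7, a partner of PAK, rose by 1.69 ± 0.083.

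Cereblon, the substrate receptor that many degraders use, was also examined at the mRNA level. Of 13 genes of its ligase and of the proteins that cereblon-binding drugs recruit, 4 rose and 5 fell (median 0.013), shares that are close to those of all genes. CRBN rose, with 2189, 1976, 2136 and 2416 with ARM165, against 827, 988, 950.4 and 943 with DMSO (change 1.23 ± 0.086). IKZF1, which encodes the lymphoid and myeloid factor Ikaros, fell, with 1944, 1946, 2121 and 2025 with ARM165, against 5946, 6052, 5686 and 5515 with DMSO (change -1.53 ± 0.052). CSNK1A1, casein kinase 1 alpha, rose by 1.54 ± 0.061. These are mRNA values, and protein removal cannot be read from them.

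Immediate early genes, which code for factors that cells make within minutes of a signal, were high at 24 h. Of 20 members, 16 rose and 0 fell (median 1.29). JUN, the core of the AP-1 factor, had 27971, 25928, 25507 and 26410.4 with ARM165, against 452, 458, 429 and 451 with DMSO (change 5.88 ± 0.061, adjusted p = 9.24e-18). ATF3, a stress-induced partner of JUN, had 4232, 4178, 4419 and 4561 with ARM165, against 146, 106, 128 and 140.2 with DMSO (change 5.06 ± 0.11). NR4A3, an orphan nuclear receptor and tumour suppressor in AML models, had 206, 159.8, 152 and 126 with ARM165, against 1.26, 0, 1.99 and 4.83 with DMSO (change 5.99 ± 0.75). EGR2 changed by 4.01 ± 0.39. SRF, which drives many of these genes in response to serum, was not called (0.024 ± 0.053), and the same held for FOS (-0.19 ± 0.12), NR4A1 (0.059 ± 0.27) and NR4A2 (-0.13 ± 0.18).

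Genes that ERK signalling induces and that feed back on it rose for 11 of 18 and fell for 4 (median 0.82). PHLDA1, a protein induced by growth signals and stress, had 8173, 7816, 8098 and 9129 with ARM165, against 59.8, 88.5, 56.9 and 68.4 with DMSO (change 6.92 ± 0.13). DUSP1, a phosphatase of p38 and JNK kinases, had 2519.6, 2437, 2597 and 2761 with ARM165, against 75.7, 101, 53.1 and 79.4 with DMSO (change 5.08 ± 0.22). DUSP5 and DUSP10, also phosphatases of MAP kinases, rose by 3.25 ± 0.081 and 2.99 ± 0.11. In contrast, SPRY1, a Sprouty inhibitor of receptor signalling, changed by -1.18 ± 0.17, DUSP2 by -1.15 ± 0.13 and ETV4 by -1.10 ± 0.087, while SPRY2 rose (2.16 ± 0.067). Sprouty members of the same list therefore moved in both directions.

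Cell cycle genes fell in concert. All 44 of 44 DNA replication genes measured fell (median -1.63, range -2.37 to -0.17), and all 44 of 44 mitosis genes fell (median -1.39, range -2.16 to -0.72), where 31.6% of all genes did. UHRF1, which carries DNA methylation through replication, had 3858, 3786, 4177 and 3814 with ARM165, against 20495, 20394, 19394 and 20325 with DMSO (change -2.37 ± 0.045, adjusted p = 2.77e-15). MCM10, which helps to fire replication origins, changed by -2.25 ± 0.095, DSCC1, a loader of the sliding clamp, by -2.19 ± 0.099 and FEN1, which trims Okazaki fragments, by -2.16 ± 0.059. PCNA, the sliding clamp itself, had 8835, 8286, 9299.6 and 9982 with ARM165, against 29739, 32072, 31116 and 28956 with DMSO (change -1.75 ± 0.058). Of the replicative helicase, MCM3 had 9235, 9731, 9814 and 9909 with ARM165, against 35165, 34891, 36131 and 33572 with DMSO (change -1.85 ± 0.044). Each of these genes was lower in every ARM165 library than in any DMSO library. Among mitosis genes, CENPM, a centromere protein, changed by -2.16 ± 0.077, AURKB, the kinase that corrects chromosome attachment, by -1.92 ± 0.07, SPC24, a kinetochore subunit, by -1.89 ± 0.11 and KIF20A, a motor of cytokinesis, by -1.81 ± 0.084.

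The promoters of these genes were searched for letters that E2F and cell cycle factors are known to bind, and 80 bases of some that hold them are shown because the genes fell together. Sequences are from RefSeq (GRCh38.p14), on the strand of the gene, read from windows of 250 bases before to 50 after the start, which were found for 11231 of the genes tested (11152 windows, since some symbols share a gene). Capitals mark the E2F letters TTTGGCGC or TTTCCCGC, on either strand, in the first 3 and the letters TTTGAA of the cell cycle homology region, on either strand, in the last 2.
UHRF1 (chr19:4909441-4909520, plus strand): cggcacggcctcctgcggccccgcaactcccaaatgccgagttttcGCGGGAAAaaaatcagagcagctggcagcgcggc
PCNA (chr20:5126638-5126717, minus strand): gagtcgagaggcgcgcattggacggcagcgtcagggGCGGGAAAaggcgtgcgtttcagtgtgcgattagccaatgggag
MCM3 (chr6:52284873-52284952, minus strand): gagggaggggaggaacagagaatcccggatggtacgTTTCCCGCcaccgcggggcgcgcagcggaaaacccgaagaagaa
PLK1 (chr16:23678823-23678902, plus strand): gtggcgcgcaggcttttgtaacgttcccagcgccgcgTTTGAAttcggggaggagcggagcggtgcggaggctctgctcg
KIF11 (chr10:92593065-92593144, plus strand): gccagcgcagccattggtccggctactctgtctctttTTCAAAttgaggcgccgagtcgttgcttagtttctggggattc
The E2F letters stood in 16 of the 38 replication gene promoters found (42.1%) and in 3.55% of 11152 promoters of tested genes. Replication genes with these letters had a median change of -1.69 and those without them -1.57. TTTGAA stood in 24 of 34 mitosis promoters (70.6%) and in 10.5% of all, and the median was -1.39 with and without it. A match of letters is a description of the window and no evidence of binding.

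The upstream regulators moved in the same direction with exceptions. Of 17 cyclins and cell cycle kinases, 14 fell and 2 rose. CCNE2 (-1.87 ± 0.15) and CCNE1 (-1.74 ± 0.071), the cyclins of S phase entry, were lower, likewise PKMYT1 (-1.75 ± 0.08), which restrains CDK1, and CDC25A (-1.70 ± 0.069), which activates CDKs. CDK6 (0.38 ± 0.07) and WEE1 (0.52 ± 0.11), a kinase that restrains CDK1, were the members that rose. E2F factors and their partners were split, 6 higher and 10 lower of 18. The activators E2F1 (-1.97 ± 0.071) and E2F2 (-1.80 ± 0.12) and MYBL2 (-1.80 ± 0.054), a driver of mitotic genes, fell, and RB1, the brake on E2F, was among those that rose (0.57 ± 0.085).

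A pair of inhibitors of the cyclin-dependent kinases stood out among 7 measured, of which 3 rose and 2 fell. CDKN1A, which encodes the arrest protein p21, had 16914, 17092, 17476 and 16941 with ARM165, against 394, 356, 351 and 391 with DMSO (change 5.52 ± 0.092, adjusted p = 8.36e-16). CDKN2B, which encodes p15, an inhibitor of CDK4 and CDK6, had 745, 724, 702 and 624 with ARM165, against 38.1, 19.1, 18.6 and 29.5 with DMSO (change 4.74 ± 0.31). Every ARM165 library was above every DMSO library in both. CDKN1B, which encodes p27 and is a FOXO target, was not called (0.15 ± 0.085, 95% interval -0.031 to 0.33).

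Enzymes that make nucleotides fell for 24 of 26 and rose for 1 (median -1.39). TK1, a salvage kinase for thymidine, had 342, 497, 415 and 455 with ARM165, against 2001, 1984, 2038 and 1900.0 with DMSO (change -2.22 ± 0.10). NME1, which makes nucleoside triphosphates, changed by -2.14 ± 0.061 and RRM2, a subunit of ribonucleotide reductase, by -2.02 ± 0.075. ADSS, of adenylate synthesis, was the member that rose (0.43 ± 0.067). Homologous recombination and Fanconi genes fell for 26 of 28 and rose for 0 (median -1.23), with XRCC2 (-2.09 ± 0.058), CHEK2 (-1.98 ± 0.13), FANCB (-1.89 ± 0.13) and FANCA (-1.89 ± 0.086) at the low end.

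The 2 kinds of histone genes differed in direction. Of 28 replication-dependent histone genes measured, 18 rose and 0 fell (median 2.16). HIST1H4H had 1241, 1361, 1482 and 1467 with ARM165, against 29.6, 82.6, 26.1 and 36.3 with DMSO (change 5.11 ± 0.34). HIST1H2AC had 3461, 3700.2, 3397 and 3789.7 with ARM165, against 128, 129, 127 and 113 with DMSO (change 4.84 ± 0.12). HIST1H1C, a linker histone, changed by 4.03 ± 0.12 and HIST1H2BD by 4.51 ± 0.20. The libraries were made from poly(A) RNA, per the labels, whereas most replication-dependent histone mRNA has no poly(A) tail, so these values cover the tailed transcripts. Histone genes also have close copies, so single members are uncertain. Of 9 replication-independent histone genes, 6 fell and 3 rose (median -0.71). Among them H2AFZ fell (-1.49 ± 0.075), while H3F3B, which encodes the variant H3.3, rose (1.82 ± 0.054).

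MYC, which encodes a transcription factor of cell growth, fell. It had 6487, 6813, 6968 and 6321 with ARM165, against 26039.7, 23534, 25874 and 25691 with DMSO, with a change of -1.93 ± 0.056 (adjusted p = 2.12e-13). MXD1, a partner of MAX that opposes MYC, rose by 2.02 ± 0.11 and MXD3, another MAX partner, fell, with a change of -2.11 ± 0.11. The whole network of 12 genes counted 3 higher and 4 lower.

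Ribosome biogenesis genes, many of them known MYC targets, fell for 36 of 39 and rose for 2 (median -0.91). NOP56, of the complex that methylates ribosomal RNA, had -1.48 ± 0.053 as its change, NHP2, of small nucleolar particles, -1.60 ± 0.058, NOP16 -1.56 ± 0.068, and RRS1, which assembles the large subunit, -1.55 ± 0.074. NPM1, the nucleolar protein often mutated in AML, had 39384, 37699, 41064 and 44149 with ARM165, against 75137, 82839, 75282 and 70874 with DMSO (change -0.91 ± 0.06). NCL, which encodes nucleolin, had 15729, 14544, 15823 and 16386 with ARM165, against 37512, 39924, 37549 and 34933 with DMSO (change -1.26 ± 0.052). RRN3, the factor that starts RNA polymerase I, rose, with 5757, 5074, 5338 and 6176 with ARM165, against 2299.5, 2468, 2129 and 2159 with DMSO (change 1.30 ± 0.067). The E-box letters CACGTG, which MYC and related factors bind, stood in 13 of 34 promoters of this list (38.2%) and in 9.87% of all, and the median was -0.735 with them and -0.936 without. Both windows below hold the letters, in capitals, near the start of a gene that fell.
FBL (chr19:39846360-39846439, minus strand): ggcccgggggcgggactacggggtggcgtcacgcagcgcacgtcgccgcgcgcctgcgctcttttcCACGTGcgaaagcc
RRP9 (chr3:51941885-51941964, minus strand): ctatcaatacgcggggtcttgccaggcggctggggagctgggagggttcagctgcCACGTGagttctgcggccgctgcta
FBL encodes the methyltransferase of box C/D particles (change -1.14 ± 0.066) and RRP9 a protein of the same pathway (change -1.06 ± 0.065).

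Cytosolic ribosomal protein genes hardly moved. Of 44 measured, 8 rose and 11 fell, every change was between -0.56 and 0.37, and their median was 0.0015. The split depended on the scaling, with 20 higher and 10 lower after quantile normalization, so no direction is given for the family. Translation factors were mixed (16 higher, 10 lower of 40). EIF5, which triggers start codon recognition, rose by 2.13 ± 0.068 and EIF1, its partner, by 2.04 ± 0.052, while EEF1A1, which brings tRNAs to the ribosome, had 418320.0, 441900.4, 436969.7 and 458656 with ARM165, against 1090167, 1227819, 1068229 and 1034219 with DMSO (change -1.33 ± 0.07). EEF1A1 has many processed pseudogenes, so its value is uncertain.

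The machinery of transcription and splicing shifted too. RNA polymerase subunit genes fell for 16 of 23 and rose for 4 (median -0.55), with changes from -1.96 to 1.58. The polymerase III subunits POLR3K (-1.96 ± 0.074) and POLR3G (-1.69 ± 0.12) were at the low end. Splicing factors fell for 26 of 41 and rose for 8 (median -0.40). SNRPD1, a core protein of the spliceosome, had 3000.0, 3294, 3303 and 3308 with ARM165, against 9288, 11496, 9951 and 8757 with DMSO (change -1.61 ± 0.071), and other core proteins such as SNRPF (-1.34 ± 0.075) and SNRPD3 (-1.22 ± 0.13) followed. A further list holds P-TEFb, the kinase that releases paused RNA polymerase II, its inhibitors, the BET readers, elongation factors and SERTAD1. Of its 17 genes, 16 rose and 1 fell. HEXIM1, which holds P-TEFb inactive, had 9615, 9473, 9204 and 9510.0 with ARM165, against 3971, 3969, 4160.4 and 3955 with DMSO (change 1.24 ± 0.044). SERTAD1, a CDK4-binding protein, rose by 4.00 ± 0.074, and the elongation factors ELL2 and AFF4 by 2.29 ± 0.22 and 2.01 ± 0.14.

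**Figure D3:**
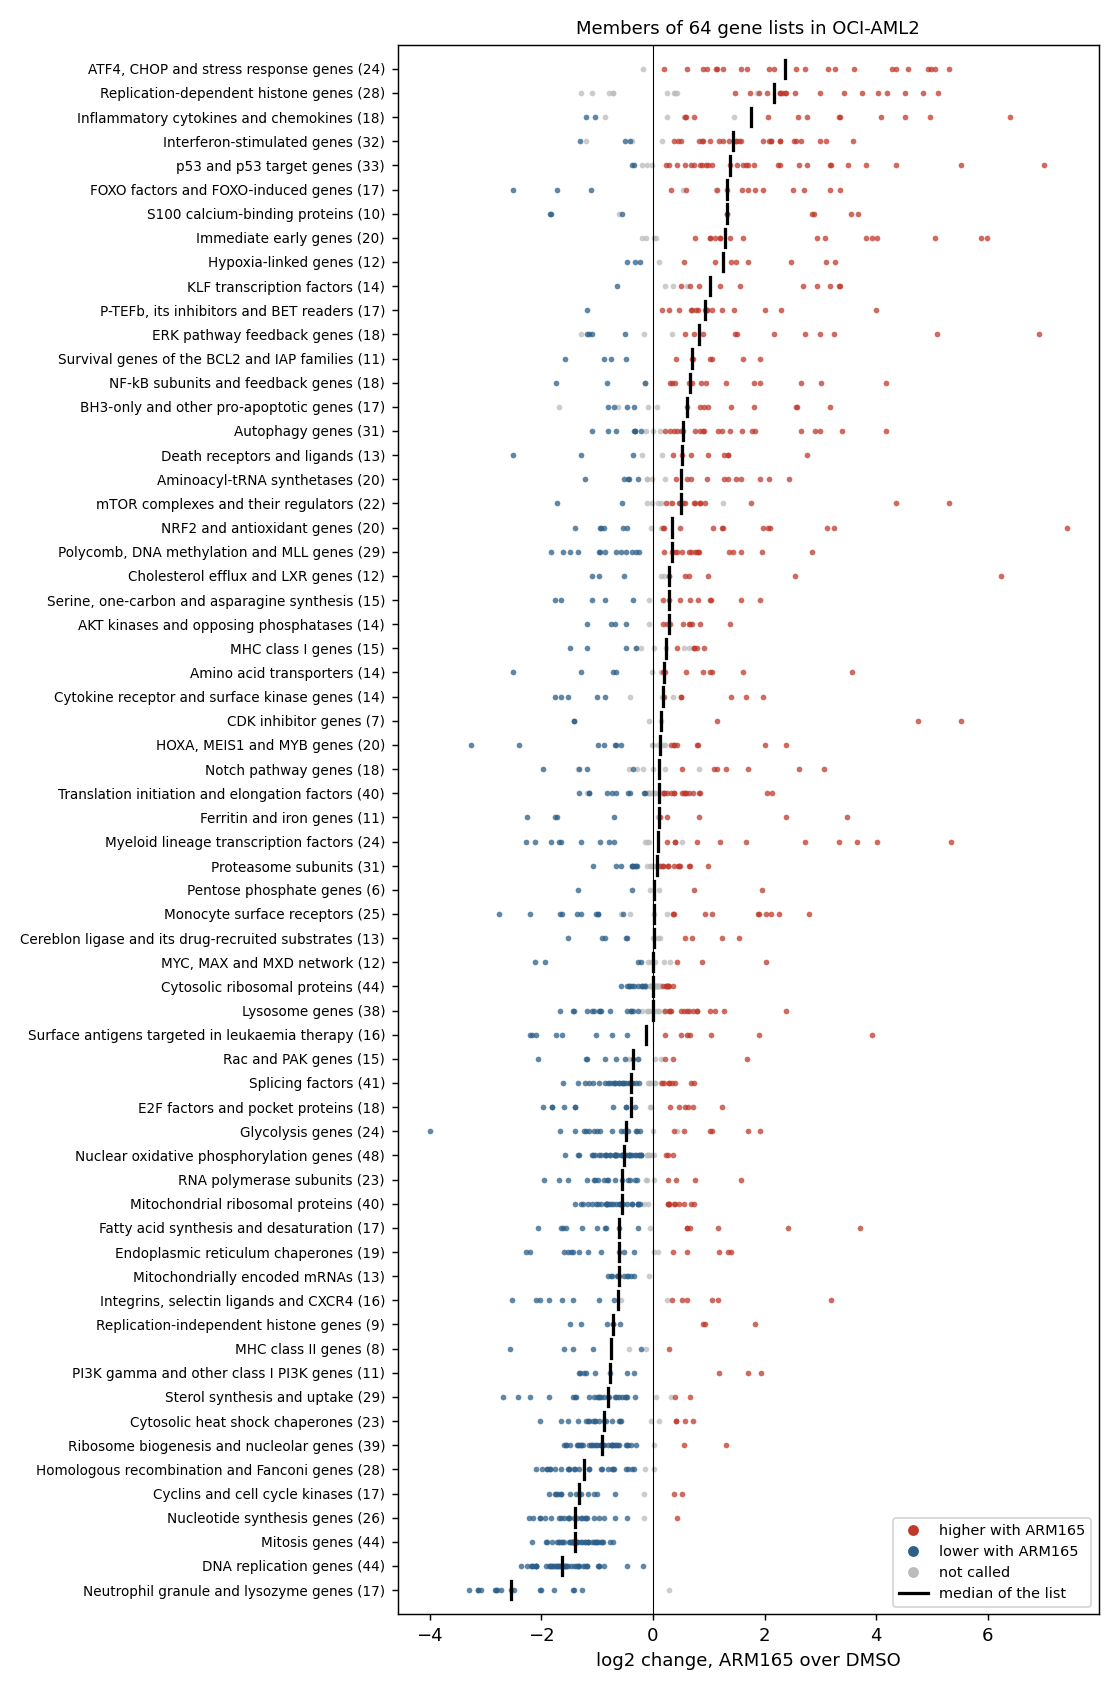
Each row is a gene list with the number of members tested, and each point is a member's log2 change with ARM165 over DMSO in OCI-AML2. Red members rose, blue members fell, grey ones were not called, and black bars are list medians. Medians run from -2.55 for neutrophil granule genes to 2.37 for ATF4 and stress response genes.

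Genes that p53 activates rose for 28 of 33 measured and fell for 2 (median 1.38). GDF15, a stress-induced secreted factor, had 2060.0, 2102, 2339 and 1960.0 with ARM165, against 16.4, 12.7, 16.6 and 15.9 with DMSO (change 7.01 ± 0.29). BTG2, an antiproliferative gene, changed by 3.81 ± 0.11, and CDKN1A and SESN2 have been given above. MDM2, the ligase that removes p53, changed by 0.95 ± 0.12 and MDM4 by 1.38 ± 0.085. FAS, DDB2 and FDXR, which p53 also activates, were at -0.20 ± 0.26, 0.24 ± 0.083 and 0.28 ± 0.12, so the size of the change differed widely within the list. The call of DDB2 was lost in 3 alternative settings and that of FDXR in 10, with adjusted p up to 0.0812 and 0.367. GDF15, SESN2, BBC3 and TNFRSF10B are known to respond to ATF4 or CHOP as well, so these members do not belong to p53 alone.

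Genes of cell death moved in both directions. Of 17 BH3-only and other pro-apoptotic genes, 9 rose and 4 fell. BBC3, which encodes PUMA, had 5199, 5389, 5612 and 5341 with ARM165, against 652, 427, 741 and 599 with DMSO (change 3.18 ± 0.12). BMF, a BH3-only protein, changed by 2.57 ± 0.099 and PMAIP1, which encodes NOXA, by 1.81 ± 0.12, while BID (-0.81 ± 0.081) and APAF1 (-0.69 ± 0.11), the scaffold of the apoptosome, fell. Of 11 survival genes, 7 rose and 4 fell. BCL2, the target of venetoclax, had 3192, 3208, 3057 and 3258 with ARM165, against 9828, 9994, 9235 and 8658 with DMSO (change -1.57 ± 0.052). MCL1, the other main survival protein of AML cells, had 33160.0, 29641, 31309 and 35132 with ARM165, against 10310.3, 11902, 9805 and 10437 with DMSO (change 1.61 ± 0.065). The pair therefore moved in opposite directions. Among death receptors and ligands (8 higher, 3 lower of 13), TNFRSF10B, which encodes the TRAIL receptor DR5, rose by 2.76 ± 0.073, whereas its ligand TNFSF10 fell, as given above.

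The integrated stress response had the highest median of all lists. Of 24 genes of ATF4, CHOP and the stress response, 23 rose and 0 fell (median 2.37). ATF4, the factor whose translation rises when eIF2 is phosphorylated, had 238233, 234868, 243682 and 248103 with ARM165, against 53775, 53590.5, 56463 and 51507 with DMSO (change 2.16 ± 0.049, adjusted p = 1.68e-14). DDIT3, which encodes CHOP, had 21994, 22955, 22748 and 21748 with ARM165, against 939, 901, 1054 and 897 with DMSO (change 4.56 ± 0.065). PPP1R15A, which encodes the phosphatase subunit that reverses the response, had 67416, 66542, 65512 and 66200.3 with ARM165, against 2095, 1964, 2335 and 2029 with DMSO (change 4.98 ± 0.058). CHAC1, which degrades glutathione, changed by 4.92 ± 0.19. XBP1 (0.96 ± 0.042) and ERN1 (0.89 ± 0.17), of the IRE1 arm of the unfolded protein response, rose less, and the upstream kinases counted EIF2AK3, which encodes PERK (2.57 ± 0.14), and EIF2AK2, which encodes PKR (1.14 ± 0.11), among the risers, with EIF2AK4, which encodes GCN2, not called (-0.17 ± 0.084).

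Aminoacyl-tRNA synthetases, which load tRNAs and of which several are ATF4 targets, were split, 11 higher and 5 lower of 20 (median 0.51). WARS had 10901, 11540.4, 11215 and 11369 with ARM165, against 2043, 2109, 2171 and 2004 with DMSO (change 2.43 ± 0.045). SARS changed by 2.07 ± 0.046, CARS by 1.91 ± 0.054 and MARS by 1.57 ± 0.064, while FARSA, a subunit of the phenylalanine enzyme, had 5977, 6672, 6411 and 5933 with ARM165, against 14920.4, 12935, 15576 and 14411 with DMSO (change -1.21 ± 0.068). The letters TGATGNAA of the composite element that ATF4 binds with C/EBP proteins stood on either strand in 6 of 13 synthetase promoters found (46.2%) and in 1.98% of all, and synthetases with them had a median change of 1.31 against -0.263 for those without. In the ATF4 list itself they stood in 3 of 22 promoters (13.6%). Only 13 of the 20 synthetases had a window. WARS and SARS, the synthetases that rose most, were not among the 6 with the letters. They either lacked the letters or had no window. The difference between synthetases with and without the letters was not tested. Windows of 4 genes that rose are shown with the element in capitals.
ASNS (chr7:97872433-97872512, minus strand): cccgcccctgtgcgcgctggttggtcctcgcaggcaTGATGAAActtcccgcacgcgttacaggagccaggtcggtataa
CARS (chr11:3057404-3057483, minus strand): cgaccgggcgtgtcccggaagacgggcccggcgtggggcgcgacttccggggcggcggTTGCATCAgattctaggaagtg
MARS (chr12:57488008-57488087, plus strand): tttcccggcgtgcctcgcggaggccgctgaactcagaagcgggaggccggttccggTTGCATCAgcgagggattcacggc
TARS (chr5:33440905-33440984, plus strand): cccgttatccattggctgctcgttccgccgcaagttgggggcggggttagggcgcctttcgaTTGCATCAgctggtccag
ASNS, which encodes asparagine synthetase, a textbook ATF4 target, had 11325, 12122, 11982 and 12270.1 with ARM165, against 3978, 4674, 3767 and 3556 with DMSO (change 1.58 ± 0.071), and TARS changed by 1.35 ± 0.075.

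Serine, one-carbon and asparagine synthesis genes rose for 9 and fell for 5 of 15. The mitochondrial ALDH1L2 (1.91 ± 0.073) and the serine enzymes PSPH (1.04 ± 0.096) and PSAT1 (1.02 ± 0.074) rose, while SHMT1 (-1.75 ± 0.07) and MTHFD1 (-1.65 ± 0.059), which supply folate units in the cytoplasm, fell. Among amino acid transporters (8 higher, 4 lower of 14), SLC6A9, a glycine carrier, rose by 3.57 ± 0.46, SLC38A2, a neutral amino acid carrier, by 1.61 ± 0.083 and SLC3A2, the heavy chain of several carriers, by 1.06 ± 0.074. SLC38A5, a glutamine carrier, had 455, 439, 554 and 455 with ARM165, against 2762, 2489, 2779 and 2703 with DMSO (change -2.50 ± 0.087).

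Chaperone genes fell in spite of the stress response. Of 23 cytosolic and mitochondrial heat shock chaperones, 17 fell and 4 rose (median -0.88). HSPE1, the mitochondrial co-chaperone, changed by -2.02 ± 0.079 and HSPA8, the constitutive HSP70, had 27732, 27213, 28906 and 28363 with ARM165, against 84771, 94153, 86902 and 85496 with DMSO (change -1.65 ± 0.052). HSP90AB1, the constitutive HSP90, had 130865, 132903, 134054 and 135584 with ARM165, against 279510.2, 297433, 282102 and 262787 with DMSO (change -1.07 ± 0.053). In the endoplasmic reticulum, 12 of 19 chaperone genes fell and 5 rose. CALR, which encodes calreticulin, had 11209.6, 10746, 12069 and 10582 with ARM165, against 57052, 54579, 51739.8 and 52141 with DMSO (change -2.27 ± 0.051). HSPA5, which encodes BiP and is induced by the unfolded protein response, had 169745, 142596, 170444 and 161928 with ARM165, against 62003, 65419.7, 59031 and 58712 with DMSO (change 1.39 ± 0.061). BiP and calreticulin, both luminal chaperones, thus changed in opposite directions. SDF2L1 (-2.20 ± 0.075), MANF (-1.60 ± 0.068) and PDIA4 (-1.52 ± 0.047) fell with CALR, and DNAJB9 (1.34 ± 0.17) and HERPUD1 (1.18 ± 0.079) rose with HSPA5. Proteasome subunits were mixed (12 higher, 9 lower of 31, median 0.072), near the shares of all genes.

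Sterol synthesis genes fell for 24 of 29 and rose for 2 (median -0.80). TMEM97, which regulates cholesterol transport, changed by -2.41 ± 0.069, DHCR7, a late enzyme, by -2.20 ± 0.097 and ACAT2 by -1.86 ± 0.068. Cholesterol export genes of the LXR list moved less evenly (6 higher, 3 lower of 12). ABCA1, which moves cholesterol out of cells, had 416, 381, 350.0 and 427 with ARM165, against 2.90, 5.04, 3.70 and 5.57 with DMSO (change 6.24 ± 0.33). The letters TCACCCCAC of the sterol regulatory element stood on either strand in 1 of 23 promoters of the sterol list (4.35%) and in 0.457% of all. Fatty acid genes fell for 10 of 17 and rose for 6. ELOVL6, an elongase, had 224, 221, 221 and 203 with ARM165, against 865, 774, 1023 and 969 with DMSO (change -2.05 ± 0.11), FASN, fatty acid synthase, changed by -1.61 ± 0.11 and FADS2, a desaturase, by -1.56 ± 0.08. ME1, an enzyme that supplies NADPH, rose by 2.42 ± 0.087 and FADS3, a desaturase relative, by 3.70 ± 0.26.

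Glycolysis genes fell for 16 of 24 and rose for 6 (median -0.49). LDHA, which makes lactate, had 7699, 8143, 7981 and 8344 with ARM165, against 25228, 28113, 24864 and 24183 with DMSO (change -1.67 ± 0.054). PGK1 changed by -1.39 ± 0.061 and PGAM1 by -1.24 ± 0.054, while the regulators of flux PFKFB4 (1.91 ± 0.15) and PFKFB3 (1.05 ± 0.063) and the glucose carrier SLC2A3 (1.70 ± 0.10) rose. Of 6 pentose phosphate genes, 2 rose and 2 fell. Hypoxia-linked genes counted 8 higher and 3 lower of 12, led by EPAS1, which encodes HIF-2 alpha (3.26 ± 0.40), and VEGFA, the vessel growth factor, with 7724, 7709.8, 7361 and 7177 with ARM165, against 859.5, 879, 889.6 and 854 with DMSO (change 3.10 ± 0.067). BNIP3 (-0.47 ± 0.073), a HIF target, was among those that fell.

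Mitochondrial genes fell broadly and by small amounts. Nuclear genes of oxidative phosphorylation fell for 39 of 48 and rose for 3 (median -0.53), led by ATP5MC1, a ring subunit of ATP synthase (-1.58 ± 0.087), and NDUFS7, of complex I (-1.34 ± 0.096). Mitochondrially encoded mRNAs fell for 12 of 13 (median -0.62). The lower share given above is made from the values of these same mRNAs. MT-CO1, a core subunit of cytochrome oxidase, had 571230.2, 632404, 595174 and 561227 with ARM165, against 911161, 903169, 895075 and 931364 with DMSO (change -0.63 ± 0.059). Under quantile normalization, which gives genes of equal rank the same value in every library, this call was lost (adjusted p = 1.0). Mitochondrial ribosomal proteins fell for 28 of 40 and rose for 10, with MRPL12 at the low end (-1.39 ± 0.071).

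The antioxidant genes that NRF2 drives rose in part (12 higher, 6 lower of 20). HMOX1, which breaks down haem, had 10199.8, 9604, 9259 and 9753 with ARM165, against 48.9, 53.3, 58.9 and 63.8 with DMSO (change 7.41 ± 0.15, adjusted p = 7.29e-15), a rise of 170.3-fold. NQO1, a quinone reductase, had 15023, 13974, 15389 and 15404 with ARM165, against 3576, 3513, 3535 and 3337 with DMSO (change 2.10 ± 0.05). AKR1C1 changed by 3.11 ± 0.068 and OSGIN1 by 3.24 ± 0.25, while the members that fell were general redox enzymes such as CAT, catalase (-1.40 ± 0.055), GPX1 (-0.95 ± 0.073) and SOD1 (-0.93 ± 0.05). AKR1C1 has close paralogs, so its value is uncertain. The letters TGACNNNGC of the antioxidant response element stood on either strand in 2 of 16 promoters of this list (12.5%) and in 14.8% of all. Ferritin rose with HMOX1. FTH1, its heavy chain, had 516443, 511836, 511522 and 539499 with ARM165, against 46145, 45666, 50587 and 44430.2 with DMSO (change 3.48 ± 0.06). FTL, the light chain, had 1061793, 1224518, 1177770.0 and 1134701 with ARM165, against 209553, 223326, 229041 and 215837 with DMSO (change 2.39 ± 0.072). Both ferritin genes have many processed pseudogenes, so reads may be shared. TFRC, the transferrin receptor that takes up iron, fell, with 1148, 965, 1179 and 1169 with ARM165, against 3824, 4319, 3201 and 3418 with DMSO (change -1.72 ± 0.088), and so did SLC40A1, the iron exporter (-1.75 ± 0.20).

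Autophagy genes rose for 21 of 31 and fell for 7 (median 0.54). GABARAPL1, of the family that coats autophagosomes, had 5735, 5288, 5458 and 5740.5 with ARM165, against 291, 333, 341 and 273 with DMSO (change 4.17 ± 0.09). SQSTM1, the cargo receptor p62, had 19695, 19970.0, 19187 and 18815 with ARM165, against 1822, 1766, 1925 and 1913 with DMSO (change 3.39 ± 0.057). OPTN, another cargo receptor, changed by 3.00 ± 0.18 and MAP1LC3B, which encodes LC3B, by 2.91 ± 0.06. TFE3, a driver of lysosome genes, was among the risers (2.65 ± 0.078). Lysosome genes themselves were evenly split, 15 higher and 15 lower of 38 (median -0.002), shares not far from those of all genes. PSAP, a precursor of lipid-degrading cofactors, was at 2.38 ± 0.06 and CTSC, a protease that activates granule enzymes, at -1.66 ± 0.06.

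Genes of neutrophil granules and lysozyme were lower almost throughout, with 16 of 17 lower and 0 higher (median -2.55). ELANE, neutrophil elastase, had 439, 438, 461 and 346 with ARM165, against 4617, 3959, 3786 and 4188 with DMSO (change -3.30 ± 0.14, adjusted p = 1.55e-11). MS4A3, a marker of granulocyte and monocyte progenitors, had 1432, 1322, 1476 and 1634 with ARM165, against 11988, 14312, 12268 and 12820.2 with DMSO (change -3.13 ± 0.069). RNASE3, an eosinophil granule ribonuclease, had 178, 175, 211 and 172 with ARM165, against 1614, 1832, 1608 and 1479.6 with DMSO (change -3.14 ± 0.096). SRGN, the proteoglycan that packs granules, had 45849, 42099, 48527 and 49229.8 with ARM165, against 272542, 300247, 246275 and 268079.5 with DMSO (change -2.55 ± 0.071). LYZ, lysozyme, had 19648, 18050.0, 20148 and 21132 with ARM165, against 49041, 51633, 42051 and 47421 with DMSO (change -1.27 ± 0.065). All 5 were lower in each ARM165 library than in any DMSO library. DEFA3 (-3.08 ± 1.06) is a near copy of DEFA1 and low throughout, so its change is uncertain.

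S100 genes changed in both directions (6 higher, 3 lower of 10). The alarmins S100A8 (-1.83 ± 0.09) and S100A9 (-1.85 ± 0.066), which neutrophils and monocytes store, fell, as did S100A4 (-0.56 ± 0.075), another small calcium-binding protein. S100A6, of the same family, rose, with 58242, 61048, 64002 and 59888 with ARM165, against 4566, 5339, 4830.2 and 4347 with DMSO (change 3.67 ± 0.067), and S100A13 (3.55 ± 0.26), S100A16 (2.89 ± 0.11) and S100A10 (2.84 ± 0.064) rose with it.

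Monocyte surface receptors were split, 10 higher and 10 lower of 25 (median 0.022), shares not far from those of all genes. CCR2, the receptor that draws monocytes out of marrow, had 689, 629, 781 and 654 with ARM165, against 5178, 4949.8, 4194 and 4271 with DMSO (change -2.75 ± 0.08). CLEC12A, a lectin of leukaemia and progenitor cells, had 1493, 1446, 1570.0 and 1487 with ARM165, against 7085, 7097, 6715 and 6851 with DMSO (change -2.21 ± 0.054). TREM1, an amplifier of inflammation, had 4554, 4053, 4663 and 3853 with ARM165, against 510.1, 708, 583 and 690.0 with DMSO (change 2.79 ± 0.12). CD86, a co-stimulator, changed by 2.25 ± 0.20, TLR4, the endotoxin receptor, by 2.11 ± 0.15 and CD163, a macrophage receptor at low values, by 2.03 ± 0.64. CD14 was also higher (0.93 ± 0.22), while TLR2 (-1.66 ± 0.094) and TLR8 (-1.62 ± 0.26) were lower.

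**Figure D4:**
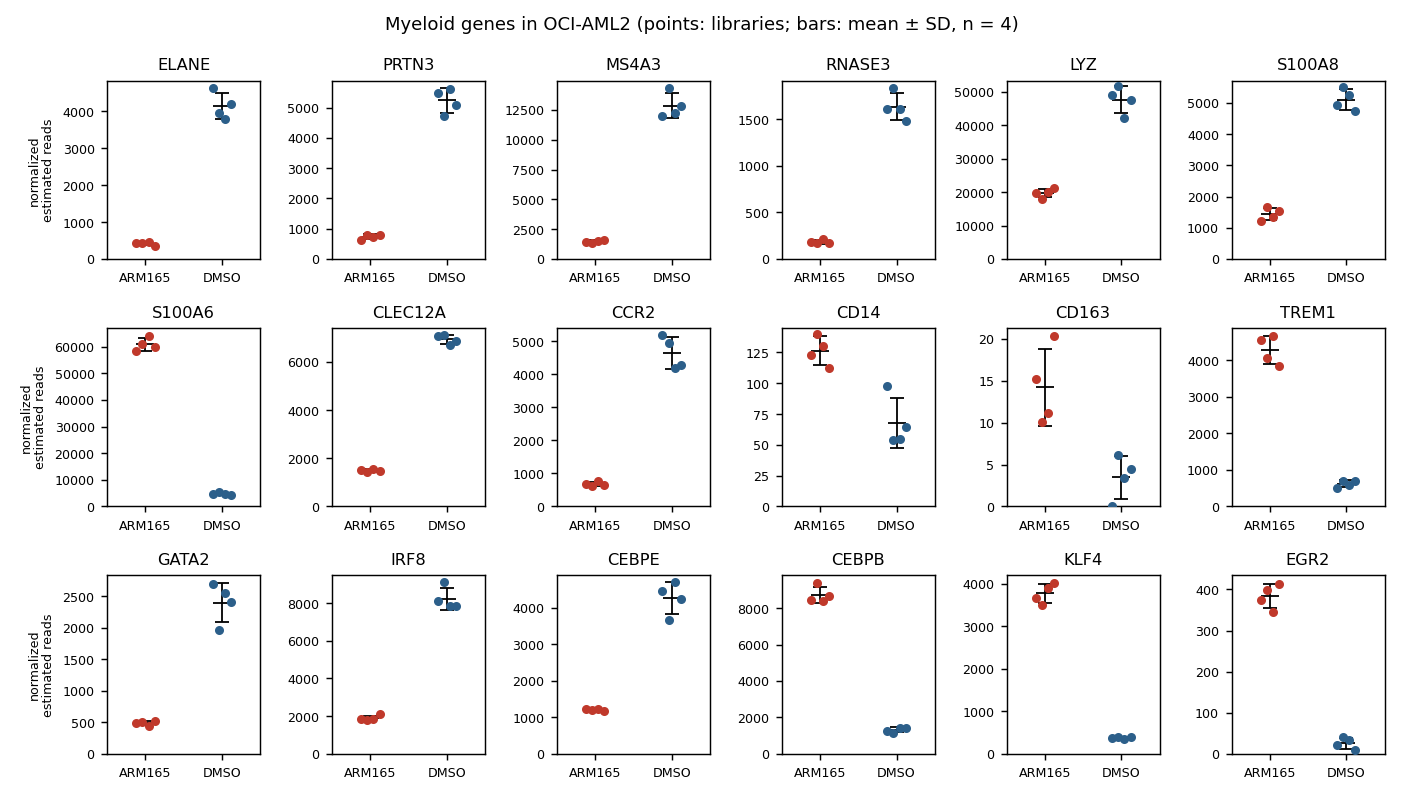
Normalized estimated reads of 18 myeloid genes in the 4 ARM165 and the 4 DMSO libraries of OCI-AML2. Points are libraries and bars the mean ± SD. Granule genes, S100A8, CLEC12A, CCR2, GATA2, IRF8 and CEBPE are lower with ARM165, and S100A6, CD14, CD163, TREM1, CEBPB, KLF4 and EGR2 are higher.

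The transcription factors of the lineage counted 11 higher and 9 lower of 24, shares not far above those of all genes. EGR2 has been given above, and KLF4, a monocyte factor, had 3677, 3512, 3902 and 4015 with ARM165, against 369.5, 395, 340.0 and 385 with DMSO (change 3.34 ± 0.084). GATA2, a factor of stem and progenitor cells, had 489, 508, 443 and 524 with ARM165, against 2693, 1962, 2552 and 2409.8 with DMSO (change -2.28 ± 0.093). IRF8, which monocyte progenitors need, had 1858, 1803, 1863 and 2096 with ARM165, against 8109.9, 9103, 7830.0 and 7844 with DMSO (change -2.11 ± 0.061). The C/EBP family split, with CEBPE, the granule gene activator, at -1.82 ± 0.075, CEBPD at -1.68 ± 0.096 and CEBPA at -0.96 ± 0.052, against CEBPB at 2.73 ± 0.086. SPI1, which encodes PU.1, was not called (-0.099 ± 0.096). HOXA, MEIS1 and MYB genes counted 8 higher and 7 lower of 20, near the shares of all genes. MYB, which AML cells need to self-renew, had 3310.5, 3057, 3379.9 and 3669.5 with ARM165, against 18129, 18459, 16843 and 17086 with DMSO (change -2.40 ± 0.055). MEIS1 was not called (0.087 ± 0.12) and HOXA9 rose (0.80 ± 0.069). JMJD1C, a chromatin factor that some AMLs depend on, rose by 2.38 ± 0.084.

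Receptors and surface antigens changed in both directions. Of 14 cytokine receptors and surface kinases, 6 rose and 5 fell, near the 34.2% and 31.6% over all genes, so the count says nothing particular of this list. FLT3, the receptor kinase most often mutated in AML, had 2171, 1796, 1965 and 1981 with ARM165, against 6623, 6856, 5715 and 5462 with DMSO (change -1.64 ± 0.075). IL6R (-1.75 ± 0.066) and CSF3R, the G-CSF receptor (-1.52 ± 0.079), fell, and IL10RA (1.98 ± 0.23) and AXL (1.67 ± 0.24) rose. Of 16 antigens targeted in leukaemia therapy, 7 rose and 8 fell. HAVCR2, which encodes TIM-3, had 168, 156, 165 and 151 with ARM165, against 14.3, 9.44, 13.5 and 4.43 with DMSO (change 3.92 ± 0.48). CD47, the signal that holds macrophages back, changed by 1.04 ± 0.072 and LILRB4 by 1.90 ± 0.078, while CD38 (-1.74 ± 0.082) and CD33 (-0.73 ± 0.064) fell. Integrins, selectin ligands and CXCR4 counted 6 higher and 8 lower of 16. CXCR4, which anchors AML cells in the marrow, had 2558, 2519.6, 2868 and 2484 with ARM165, against 11304, 11955, 10311 and 10739.5 with DMSO (change -2.09 ± 0.06). SELPLG, the ligand of P-selectin, changed by -2.53 ± 0.12, ITGA4 by -1.87 ± 0.081 and ITGA6, a laminin receptor, by 3.19 ± 0.33.

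Inflammatory genes rose. Of 18 cytokines and chemokines, 12 rose and 2 fell (median 1.75). CXCL8, which attracts neutrophils, had 16364, 13989, 16206 and 18419 with ARM165, against 2353, 2512, 2189 and 2471 with DMSO (change 2.76 ± 0.077). IL1B, a fever cytokine, had 2442, 2671, 2400.2 and 2642 with ARM165, against 206, 276, 251 and 272 with DMSO (change 3.34 ± 0.099). CCL4, a chemokine for monocytes and T cells, had 67.4, 106, 108 and 61.1 with ARM165 and was listed at 0 in the 4 DMSO libraries, so no fold is given. IL1A changed by 4.96 ± 0.80, CCL3 by 4.52 ± 0.83 and OSM by 4.08 ± 0.22. TNF was not called and spread widely, with 843, 1964, 1913 and 194 with ARM165, against 141, 818, 117 and 812 with DMSO (change 1.45 ± 1.11, adjusted p = 0.271). NF-kB subunits and feedback genes rose for 13 of 18 and fell for 3, led by TRAF1, a signalling adaptor, with 3093, 2997, 3042 and 2916 with ARM165, against 182, 168, 162 and 156 with DMSO (change 4.17 ± 0.094). BCL3 (3.01 ± 0.21) and NFKBIZ (2.65 ± 0.15), nuclear cofactors of NF-kB, followed, and IKBKE (-1.73 ± 0.068) fell.

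Interferon-stimulated genes rose for 26 of 32 and fell for 3 (median 1.43). IRF1, an activator of these genes, had 5595, 5844, 5644 and 5529 with ARM165, against 522, 445, 458 and 446 with DMSO (change 3.59 ± 0.08). IFI27 changed by 3.10 ± 0.44, IFIT2, which binds foreign RNA, by 3.00 ± 0.20 and OASL, a sensor relative, by 2.66 ± 0.26. BST2, which tethers viruses, fell (-1.31 ± 0.10), as did MX1 (-0.51 ± 0.18), whose call was lost without ARM165 replicate 1 (adjusted p = 0.0898), without DMSO replicate 3 (adjusted p = 0.0915) or with no filter on low values (adjusted p = 0.0501). The letters of the interferon-stimulated response element, GAAA and, 2 bases on, GAAA again, stood on either strand in 14 of 23 promoters of this list (60.9%) and in 3.03% of all, with a median change of 1.18 with them and 1.54 without. The letters are in capitals in windows of 3 genes that rose.
IFIT1 (chr10:89392472-89392551, plus strand): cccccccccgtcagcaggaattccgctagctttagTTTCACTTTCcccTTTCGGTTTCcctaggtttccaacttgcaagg
ISG20 (chr15:88638912-88638991, plus strand): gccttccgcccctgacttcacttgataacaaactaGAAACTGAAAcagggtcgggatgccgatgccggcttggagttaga
OAS3 (chr12:112938296-112938375, plus strand): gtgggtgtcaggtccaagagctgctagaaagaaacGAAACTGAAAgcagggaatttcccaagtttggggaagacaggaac
IFIT1, of the same family as IFIT2, had 246, 265, 367 and 300.5 with ARM165, against 78.5, 64.0, 57.4 and 68.6 with DMSO (change 2.11 ± 0.17), while ISG20, a nuclease, changed by 2.07 ± 0.27 and OAS3, a sensor of viral RNA, by 2.57 ± 0.35.

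MHC class I genes did not shift as a whole, while most of the class II genes tested fell. MHC class I genes counted 5 higher and 4 lower of 15, near the shares of all genes. B2M, the shared light chain, was at 0.42 ± 0.074 and NLRC5, the activator of these genes, at -1.48 ± 0.069. HLA genes vary between people and have close copies, so their values are uncertain. Of 8 class II genes tested, 5 fell and 1 rose (median -0.76), where 31.6% of all genes fell. The other 9 of the 17 listed were not tested. CD74, the invariant chain, had 1205, 1366, 1429 and 1245 with ARM165, against 3666, 3349, 3556 and 3671 with DMSO (change -1.44 ± 0.066).

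KLF factors rose for 10 of 14 and fell for 1 (median 1.02), led by KLF6, KLF4 and KLF2, with KLF10, an early target of TGF-beta, at 2.93 ± 0.071. Notch pathway genes were mixed (7 higher, 4 lower of 18). LFNG, which tunes Notch receptors, had 1108, 1176, 1119 and 1008 with ARM165, against 103, 136, 179 and 117 with DMSO (change 3.06 ± 0.15), and NRARP, a feedback inhibitor, changed by -1.97 ± 0.14. Polycomb, DNA methylation and MLL genes were split, 16 higher and 13 lower of 29. KDM6B, which removes the Polycomb mark, had 2787, 3258, 3015 and 3126 with ARM165, against 482, 265, 496 and 512 with DMSO (change 2.84 ± 0.17). RNF2, a Polycomb ligase, changed by 1.96 ± 0.077, CBX2 by -1.82 ± 0.13, and IDH2, mutated in some AMLs, by -1.61 ± 0.055.

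The other compound of the series left far fewer marks in the same cells. Against the same 4 DMSO libraries, AZ2 called 17 of 15377 genes (0.111%), 10 of them lower members of the sterol list and 3 lower members of the fatty acid list. The ARM165 libraries differed from the AZ2 libraries in 10124 genes (65.8%), 5300 higher (34.5%) and 4824 lower (31.4%) with ARM165. The doses are not known to match, so this compares these libraries and not the potency of the compounds, and the labels give no structures. HMGCS1, an early sterol enzyme, had 692, 611, 628 and 709 with ARM165 and 695, 759.5, 649 and 809.8 with AZ2, against 1304, 1425, 1188 and 1261 with DMSO. Its changes against the shared DMSO libraries were -0.97 ± 0.087 with ARM165 and -0.83 ± 0.087 with AZ2, and the difference of -0.14 ± 0.087 between the compounds was not called (adjusted p = 0.176). INSIG1, a sterol-induced brake on the pathway, was less reduced with ARM165 than with AZ2, at -0.32 ± 0.063 with ARM165 and -0.64 ± 0.063 with AZ2 (difference 0.32 ± 0.063, adjusted p = 3.52e-04). EGR1 rose with both, by 1.20 ± 0.066 with ARM165 and 0.52 ± 0.066 with AZ2. PIK3CG was at -0.015 ± 0.057 with AZ2, which was not called (adjusted p = 0.996), and the ARM165 libraries lay below the AZ2 libraries by -1.30 ± 0.057 (adjusted p = 2.25e-11). CECR2, a bromodomain protein, was lower with AZ2 (-1.07 ± 0.18) and higher with ARM165 (1.74 ± 0.18), a difference of 2.81 ± 0.18. CECR2 was picked after its values were seen.

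The same compound was also given to MOLM14 cells, whose libraries share none with OCI-AML2. In MOLM14, 70.9% of the 14287 genes tested in both lines were called. Of these 14287, 5116 rose in OCI-AML2 and 5130 in MOLM14, and 3824 rose in both, which is 74.7% of the OCI-AML2 list and 74.5% of the MOLM14 list. Likewise, 4634 fell in OCI-AML2 and 4993 in MOLM14, and 3511 fell in both (75.8% and 70.3%). In 367 genes the change was a rise in OCI-AML2 and a fall in MOLM14, and in 269 it was the reverse. The test of the difference called 6053 genes (42.4%), with a change higher in OCI-AML2 for 3471 (24.3%) and lower for 2582 (18.1%). Called differences of a size of at least 1 numbered 645 higher (4.51%) and 805 lower (5.63%). This split depended on the scaling, since with equal library totals it was 2382 higher and 3821 lower, after a shift of the median difference over all genes by -0.158.

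The genes with the largest differences between the lines named by the rule were of several kinds. TMTC1, of protein O-mannosylation, was not called in OCI-AML2, at -0.028 ± 0.11, while it changed by 6.27 ± 0.71 in MOLM14 (difference -6.30 ± 0.74, adjusted p = 2.75e-07). The errors of the differences come from a fit of both lines with 1 shared spread, and those within a line from its own fit, so an error of a difference need not be the wider. ORM1, an acute phase protein, had 4675, 4587, 5509 and 4796 with ARM165, against 17634, 18539.5, 18209 and 17971 with DMSO in OCI-AML2 (change -1.89 ± 0.06), but its change in MOLM14 was 2.76 ± 0.55 (difference -4.65 ± 0.31). CPXM1, a carboxypeptidase-like secreted protein, had 396, 282, 315 and 309.8 with ARM165, against 14.2, 13.1, 7.45 and 22.7 with DMSO in OCI-AML2 (change 4.49 ± 0.58), against -1.44 ± 0.11 in MOLM14 (difference 5.94 ± 0.63). ORM1 and CPXM1 thus changed in opposite directions in the lines. PHLDA2, an imprinted relative of PHLDA1, had 697, 828, 693 and 807 with ARM165, against 78.3, 5.72, 49.2 and 56.0 with DMSO in OCI-AML2 (change 4.42 ± 0.55) and a change of -0.61 ± 0.093 in MOLM14 (difference 5.04 ± 0.62). CLDN1 rose in both lines. In MOLM14 it was listed at 0 in the DMSO libraries and averaged 53.7 ± 4.96 with ARM165 (SD, n = 4), so no fold is given there. HSPB7, a small heat shock protein of muscle, had a change of 0.68 ± 0.29 in OCI-AML2, a call lost in 12 alternative settings (adjusted p up to 0.155), and 5.82 ± 0.73 in MOLM14 (difference -5.14 ± 0.71). NRAP, NRXN3, BMP6 and FAT1, all at low values in OCI-AML2, also had lower changes there, with differences of -5.09 ± 1.04, -4.65 ± 1.00, -6.46 ± 1.41 and -4.72 ± 0.73. SPRR2D was listed at 0 with DMSO in both lines. TNF, not called in OCI-AML2 (1.45 ± 1.11), changed by -3.43 ± 1.27 in MOLM14 (difference 4.88 ± 1.89, adjusted p = 0.0409), with wide spread in both lines. That call was lost in 13 alternative settings (adjusted p up to 0.0856). The other 4 genes named by the rule, INO80B-WBP1, RSC1A1, AURKAP1 and FKBPL, are a read-through, an overlapping gene, a pseudogene and a gene with 1 library far below the rest, and are uncertain. The change of HK3 was lower in OCI-AML2 than in MOLM14 (difference -2.80 ± 0.48, adjusted p = 4.42e-05), as were those of ELANE (-1.86 ± 0.19) and CALR (-0.72 ± 0.067). PIK3CG changed by -1.31 ± 0.057 in OCI-AML2 and -0.52 ± 0.067 in MOLM14 (difference -0.79 ± 0.088, adjusted p = 1.08e-07).

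**Figure D5:**
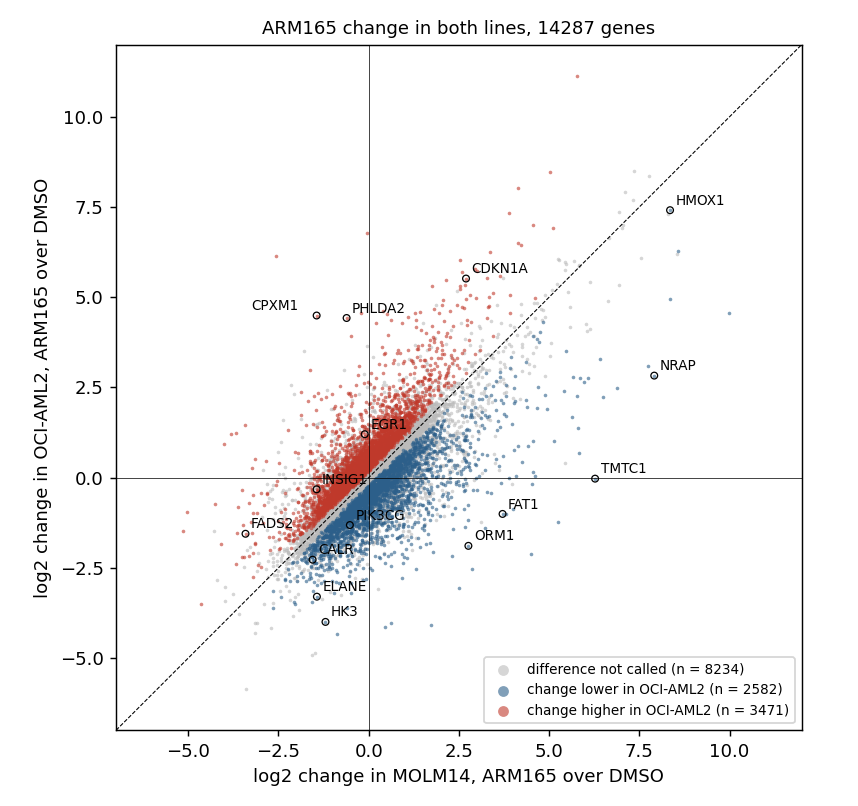
Each point is a gene tested in both lines, by its log2 change with ARM165 over DMSO in OCI-AML2 (vertical axis) and in MOLM14 (horizontal axis), with a dashed line of equal change. Red points had a higher change in OCI-AML2 (3471), blue points a lower one (2582) and grey points no called difference. CPXM1 and PHLDA2 lie far above the line and TMTC1 and NRAP far below it.

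In some gene lists most members differed in their change between the lines. DNA replication genes had a lower change in OCI-AML2 for 27 of 44 and a higher one for 0, and neutrophil granule genes had a lower change for 10 of 14 and a higher one for 1. Endoplasmic reticulum chaperones had a lower change in OCI-AML2 for 14 of 19 and a higher one for 2, under each of the 4 scalings tried. Aminoacyl-tRNA synthetases had a higher change in OCI-AML2 for 19 of 20 and a lower one for 0, which became 12 and 0 with equal library totals, and their median was 0.51 in OCI-AML2 and -0.068 in MOLM14. Against the shares of 24.3% and 18.1% over all genes, these lists stood apart in count, but no test of a list was made.

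Some defining markers of other cell types were at or near 0, and others were well above it. MS4A1, of B cells, and PF4, of megakaryocytes, were listed at 0 in all 8 libraries, and CD3D and CD3E, of T cells, did not pass 4.23. NCAM1, by contrast, lay between 732 and 822 with ARM165 and between 1396 and 1626 with DMSO, NKG7 between 480 and 660.3 with ARM165 and between 751 and 903 with DMSO, and FCER2, a B cell marker, between 139 and 219.8 with ARM165 and between 255 and 339 with DMSO. Of 16 T and NK cell markers, 6 passed the filter on low values and 5 of those fell, among them NCAM1 (-0.94 ± 0.064) and NKG7 (-0.52 ± 0.12). The summed level of that list was 1348 to 1461 with ARM165 and 2320 to 2630 with DMSO. Of 12 B cell markers, 5 passed the filter and 2 fell (sums 209 to 332 with ARM165 and 395 to 457 with DMSO). Of 16 erythroid and megakaryocyte markers, 3 passed and all 3 fell (sums 11.3 to 271 with ARM165 and 471 to 624 with DMSO), most of it GP1BB. A marker could pass the filter through its DMSO and AZ2 libraries alone. ITGA2B reached at most 2.88 with ARM165 and lay between 10.1 and 26.0 with DMSO. PRF1, of the T and NK list, reached at most 6.90 with ARM165. Falls of such low markers were favoured by the filter, so their count is no result. Of 16 epithelial and fibroblast markers, 4 passed the filter and 0 were called (sums 45.5 to 159 with ARM165 and 76.3 to 102 with DMSO). Of 18 AML and myeloid markers, 16 passed, 5 rose and 9 fell (sums 83671 to 87284 with ARM165 and 124980 to 133420 with DMSO). Their part in the results was not tested.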

How the data were processed

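Poly(A) RNA was sequenced from 24 libraries, 4 for each of 6 groups. The deposited values are normalized estimated read counts per gene symbol, a signal that is never below 0, in a table for each line with its own scaling. The authors used kallisto, per the submitters' processing notes. Its version, the genome build, the annotation and the method of scaling are not given in the sources used here. Reads were estimated from the value that 1 read takes in each library, but only 13.7% to 15.4% of values lay within 0.01 of a whole multiple of it, so no count test was run.

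Genes with a value of at least 10 in at least 4 of the 12 OCI-AML2 libraries were tested on log2(value + 1) with limma 3.58.1 (R 4.3.3), with a variance trend, 1 mean per group, all 12 libraries sharing the spread, and Benjamini-Hochberg adjustment over all genes tested. A fit of all 24 libraries gave the test of the line difference, which is the ARM165 change in OCI-AML2 minus that in MOLM14. The scripts were tested on simulated data. Shares were compared with exact permutation tests (scipy 1.17.1). Alternatives changed the pseudocount (0.5 and 5), the filter (none, or at least 50), the scaling, the variance trend, the libraries in the fit and the replicate block.

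The members, the 69 gene lists and the tests were chosen with earlier results of these data known. The text names PIK3CG, PIK3R5, PIK3R6, AKT1 and AKT2, then the 15 largest rises and falls among genes that average 50 or more in a group and whose groups do not overlap (clone-style names left out), from each list up to 4 members with the largest rise, 4 with the largest fall and 3 with the highest mean, and the 8 largest line differences in each direction. Genes outside that rule were named after their values were seen. They are CD14, CDKN1B, CEBPB, CECR2, DDB2, DDIT3, EGR1, EIF2AK2, EIF2AK3, EIF2AK4, ERN1, FAS, FBL, FDXR, FOS, HMGCS1, IFIT1, INSIG1, ISG20, MDM2, MEIS1, MTOR, NR4A1, NR4A2, OAS3, RAC1, RRP9, SRF, TFE3 and XBP1. Some items that the rule names are not reported here.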

Additional observations from a re-analysis of the deposited data

Results flagged for a closer look

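For the genes named in OCI-AML2, each group of 4 libraries was examined for a library far from the other 3, by the gap to its nearest neighbour over the whole range of the group. Of 644 groups, 36 held such a library, and chance alone marks about 1 group in 20. The values are normalized estimated reads. ARM165 replicate 1 stood apart in 3 genes, high for DEFA3 (2.87) and low for PIK3CG (1180.2) and SNRPD1 (3000.0). ARM165 replicate 2 stood apart in 7 genes, high for BMP6 (16.4), FASN (541) and KIF20A (335) and low for CD47 (6280.1), PIK3AP1 (860.3), TFRC (965) and XRCC2 (492). ARM165 replicate 3 stood apart in 5 genes, high for CACNA2D3 (271), RNASE3 (211), SLC38A5 (554) and XIRP1 (818) and low for OSM (523). ARM165 replicate 4 stood apart in 3 genes, high for CCL3 (82.1) and TRIB1 (2169) and low for ELOVL6 (203). DMSO replicate 1 stood apart in 2 genes, high for IRF1 (522) and XIRP1 (9.46). DMSO replicate 2 stood apart in 10 genes, high for AXL (74.5), CTSC (6222), NRXN3 (11.0), PGK1 (14133), TLR2 (2538) and WEE1 (1645) and low for KDM6B (265), MYC (23534), PIK3R5 (1328) and SPI1 (12704). DMSO replicate 3 stood apart in 4 genes, high for HEXIM1 (4160.4) and IL1A (17.7) and low for AFF4 (117) and UHRF1 (19394). DMSO replicate 4 stood apart in 2 genes, high for PFKFB4 (138) and low for HIST1H2AC (113). The low PIK3CG value lay close to the other 3 ARM165 libraries, which nearly coincided.

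The change with ARM165 differed between OCI-AML2 and MOLM14 by the test of the difference itself (limma, adjusted p under 0.05) for 6053 genes and for the 14 genes whose difference is given above. On the log2 scale, the change in OCI-AML2 minus that in MOLM14 was above 0 for CPXM1 (5.94), PHLDA2 (5.04) and TNF (4.88), and below 0 for BMP6 (-6.46), CALR (-0.72), ELANE (-1.86), FAT1 (-4.72), HK3 (-2.80), HSPB7 (-5.14), NRAP (-5.09), NRXN3 (-4.65), ORM1 (-4.65), PIK3CG (-0.79) and TMTC1 (-6.30). The cause of these differences was not tested, and each line was treated and scaled on its own.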

How the results depend on the processing

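The number of genes called, in each direction, stayed within 1.5 times its reported value under every alternative run, for ARM165 against DMSO, ARM165 against AZ2 and the difference between the lines. Leaving out each library in turn gave 9790 to 10116 genes for ARM165 against DMSO, 9739 to 10235 for ARM165 against AZ2 and 5728 to 6075 for the difference between the lines. The other alternatives gave 9575 to 10182, 9588 to 10193 and 5797 to 6207 genes. Of the genes called for ARM165 against DMSO that an alternative also tested, 94.7% or more kept their call in each alternative, and 0 were called in the opposite direction. Quantile normalization gave 4923 genes higher and 5259 lower. A fit of only the 8 ARM165 and DMSO libraries, without AZ2, gave 9987 genes for ARM165 against DMSO (5240 higher, 4747 lower). With the replicate block 10058 genes changed (5230 higher, 4828 lower), 10020 differed between ARM165 and AZ2, and 5970 differed between the lines. Libraries with the same replicate number did not deviate together over all genes (r of -0.00504 to 0.0193). No pairing by number was seen, but such a correlation can miss one that touches few genes. The mitochondrial share differed by -2.37 to -2.04 percentage points when 1 library was left out, where the smallest p that 3 against 4 libraries allow is 0.0571.

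Of 322 genes named for ARM165 against DMSO, 11 gained or lost a call in some alternative. Beside those given in the report, NRXN3 lost its call without ARM165 replicate 3 (adjusted p = 0.0532). SPI1 gained a call without DMSO replicate 2 (-0.22, adjusted p = 0.0102), FOS under quantile normalization (-0.36, adjusted p = 0.0137) and EIF2AK4 in 3 alternatives (adjusted p down to 0.0361). HMGCS1 differed between ARM165 and AZ2 under quantile normalization (-0.26, adjusted p = 0.0117). The cause was not tested. Of the list medians under other scalings, 35 moved by more than the spread between replicates and 172 did not. Low values limit BMP6, CCL4, CD163, DEFA3, FAT1, NRAP and NRXN3, whose changes shrank by more than 1.5 times with a pseudocount of 5.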
